A study of Mus musculus with 18 samples.

Results

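The miR-146 family of the mouse holds a pair of hairpins, mir-146a and mir-146b, each of which gives a 5p and a 3p mature strand. Of the 2134 features in the deposited small RNA tables, 6 carry these names and were taken by name alone, namely mmu-mir-146a, mmu-miR-146a-5p, mmu-miR-146a-3p, mmu-mir-146b, mmu-miR-146b-5p and mmu-miR-146b-3p (mir is written for a hairpin and miR for a mature strand). The 18 samples are BV-2 cells, an immortalized mouse microglial line, with 3 samples in each of 6 groups. By the labels and the study's methods, control cells had neither cannabinoid nor LPS. The other groups received 10 μM CBD (cannabidiol), 10 μM THC (tetrahydrocannabinol), 100 ng/ml LPS (lipopolysaccharide) for 4 h, or CBD or THC for 2 h before the same LPS treatment (CBD+LPS and THC+LPS). Ethanol, the vehicle of the cannabinoids, did not exceed 0.1%, and whether the groups without a cannabinoid received it is not given in the sources used here. A single cell line stands for microglia here, and no source says that the 3 samples of a group were separate cultures, so that p-values measure the spread between these samples, which may be technical.

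miR-146a is a well known target of NF-κB. When LPS engages the receptor TLR4, NF-κB drives transcription of the miR-146a gene, and the mature 5p strand represses Irak1 and Traf6, proteins that carry the TLR4 signal. This loop dampens inflammatory signaling in macrophages and microglia. miR-146b comes from another chromosome and its 5p strand has the same seed, the stretch of bases that pairs with target mRNAs. The 3p strands are the passenger strands of these hairpins, and most of them are degraded when the 5p strand is loaded into Argonaute.

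The mature sequences show why the 5p strands form one family and the 3p strands do not. All 6 members were matched to RefSeq entries of the assembly GRCm38.p6. Each mature strand is written 5′ to 3′, with the seed, bases 2 to 8, in capitals.
miR-146a-5p: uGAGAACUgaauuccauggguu
miR-146b-5p: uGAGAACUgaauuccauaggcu
miR-146a-3p: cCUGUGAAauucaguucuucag
miR-146b-3p: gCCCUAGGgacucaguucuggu
The 5p strands were identical over their first 17 bases and differed at 2 of 22 positions, counted from 1 at the 5′ end, written as the base of miR-146a-5p, the position and the base of miR-146b-5p: G18A and U21C. Among the 1679 mature names in the RefSeq table, only these 2 carried the seed GAGAACU. Without gaps, the 3p strands shared 4 of 22 positions, and no other mature entry carried either of their seeds. A read that ends before base 18 cannot be assigned to one 5p strand, and reads with up to 10 mappings were admitted, so the split between miR-146a-5p and miR-146b-5p carries an uncertainty of counting that the values do not show.

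The hairpins are shown to place both arms, which are in capitals.
mir-146a: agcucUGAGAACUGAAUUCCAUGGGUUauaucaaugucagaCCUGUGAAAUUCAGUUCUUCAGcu
mir-146b: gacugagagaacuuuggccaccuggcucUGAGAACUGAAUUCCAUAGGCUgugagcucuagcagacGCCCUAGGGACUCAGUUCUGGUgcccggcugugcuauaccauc
The mir-146a hairpin (RefSeq gene Mir146) spans 65 bases at chr11:43374397-43374461 on the minus strand of GRCm38.p6. There it overlaps no other gene of GENCODE M21, the nearest being the lincRNA Gm12148 at 11021 bases. The mir-146b hairpin (Mir146b) spans 109 bases at chr19:46342762-46342870 on the plus strand. It lies in an intron of the protein coding gene Mfsd13a in GENCODE M21 and within the span of the RefSeq long noncoding RNA Gm36493.

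Values are in CPM, a read count set relative to the size of its library after correction with the TMM factor of edgeR. The libraries held between 442718 and 1057147 reads on miRNA features, and 3 reads corresponded to between 2.98 and 6.38 CPM. Together the 6 members took between 0.884% and 1.98% of a library. The samples are numbered 22 to 39, and the 6 with the lowest numbers, 1 in each group, had TMM factors of 1.03 to 1.28, against 0.886 to 1.13 in samples 28 to 39. For that reason values within samples 28 to 39, 2 in each group, are given beside the results. No pair of samples within a group agreed within sampling noise, the lowest chi-square per degree of freedom being 3.04. Pairs that included any of the 6 samples with the lowest numbers had values of 41.3 to 98.6. Pairs within samples 28 to 39 had 3.04 to 9.73, except control samples 28 and 34 at 51.6. The p-values within samples 28 to 39 thus rest on 2 samples per group, which lay much closer together in every group but control. What sets the samples with the lowest numbers apart was not tested. Among the markers of cell lineage, the myeloid miRNAs miR-142-3p, miR-142-5p and miR-223-3p were read in all 18 samples, with a summed level of 8970 to 11920 CPM in control and 11295 to 15748 CPM in LPS samples, and of 9109 to 12509 CPM in the other groups. The 9 markers of other cell types summed to between 27.96 and 41.0 CPM per sample in control, between 23.7 and 37.9 CPM in LPS and between 28.4 and 54.5 CPM in the other groups. Of these, the smooth muscle and fibroblast miR-143-3p was read in all 18 samples, at a mean of 20.2 CPM. The oligodendrocyte miR-219-2-3p was read in 17 samples and miR-219-5p in 16. The erythroid miR-451a was read in 10, and the skeletal muscle miR-1a-3p and miR-133a-3p in 7 each. The neuronal miR-124-3p was read in 3 samples, miR-145a-5p in 3 and the hepatocyte miR-122-5p in 5. The part of these levels in the results was not tested.

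The 5p strands were among the abundant miRNAs of these cells. By mean level, miR-146a-5p ranked 22 and miR-146b-5p ranked 26 among the 721 mature miRNAs tested, with 8645 and 6212 CPM over all samples. The 3p strands, which have the same length of 22 bases, ranked 335 and 370, with 16.3 CPM for miR-146a-3p and 11.6 CPM for miR-146b-3p. Of the 642 hairpins tested, mir-146a ranked 21 and mir-146b ranked 31. All 6 members passed the minimum of 10 reads over the 18 samples, which 1363 features passed.

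LPS raised both strands of miR-146a, and no member of miR-146b was called. Compared with control by limma at a p of at most 0.005 and at least 1.5-fold, 2 of the 6 members rose and none fell. Over all features the same criterion called 1.54% (1.39% higher and 0.147% lower), and the median log2 difference was 0.31 over the members and 0.11 over all features. With LPS pooled over the 3 cannabinoid states (9 samples with and 9 without LPS, adjusted p of at most 0.1), the same 2 members rose, against 1.54% of all features (1.32% higher and 0.22% lower), with medians of 0.33 and 0.03. The F test across the 6 groups, at the same adjusted p, called 1 member, miR-146a-3p (adjusted p = 0.0026), with 1.76% of all features called. At an unadjusted 0.05, 3 members and 114 of the 1363 features passed it.

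miR-146a-3p, the passenger strand, showed the largest change of the 6. It was at 8.51, 6.84 and 4.66 CPM in the control samples and at 44.5, 29.1 and 33.99 CPM in the LPS samples. CBD+LPS samples had 23.7, 25.2 and 16.8 CPM and THC+LPS samples had 26.7, 26.005 and 17.2 CPM. Every sample with LPS lay above every sample without it, and the highest sample without LPS had 9.46 CPM. These levels rest on few reads, 12 in the 3 control samples together and 89 in the 3 LPS samples. The share of all features that separate as this strand does is not given here. With LPS the mean rose 5.38-fold, from 6.67 ± 1.93 to 35.9 ± 7.84 CPM (SD, n = 3). On the log2(CPM + 1) scale, which understates changes of low features, the difference was 2.28 (SE 0.46, adjusted p = 0.02). Pooled over the cannabinoid states it was 2.15 (SE 0.25, adjusted p = 1.6e-05), the 6th smallest p of 1363 features. Within samples 28 to 39 the pooled difference was 2.14 (adjusted p = 0.0013), and leaving out any single sample gave 2.03 to 2.27, called each time.

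miR-146a-5p, the strand that represses Irak1 and Traf6, was at 6591, 4569 and 6634 CPM in control and at 10482, 12064 and 10411 CPM in LPS. CBD+LPS samples had 7510, 12680 and 11267 CPM, and THC+LPS samples had 11713, 10413 and 10647 CPM. The LPS and control samples did not overlap, though the share of all features that separate in this way is not given here. Among all samples with LPS, only CBD+LPS sample 26 lay within the range of the samples without LPS, whose highest value was 8875 CPM in a THC sample. The mean rose 1.85-fold with LPS, from 5931 ± 1180 to 10986 ± 934 CPM (SD, n = 3). This was a log2 difference of 0.91 (SE 0.28, 95% confidence interval 0.32 to 1.49) with an unadjusted p of 0.00448 by limma, just inside the criterion, and an adjusted p of 0.291. Leaving out any single one of 12 samples (control 22, 28 and 34, LPS 23, 29 and 35, CBD 30, THC 31, CBD+LPS 38 and THC+LPS 27, 33 and 39) ended that call, with an unadjusted p by limma between 0.00507 and 0.0279, while the difference stayed between 0.73 and 0.998. With LPS pooled over the cannabinoid states, miR-146a-5p rose by 0.77 on the log2 scale (SE 0.15, adjusted p = 0.0067), and leaving out any single sample gave 0.67 to 0.83, called each time. Within samples 28 to 39 alone, the difference between LPS and control was 1.03 (adjusted p = 0.00046, with 2.71% of all features called there).

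**Figure D1:**
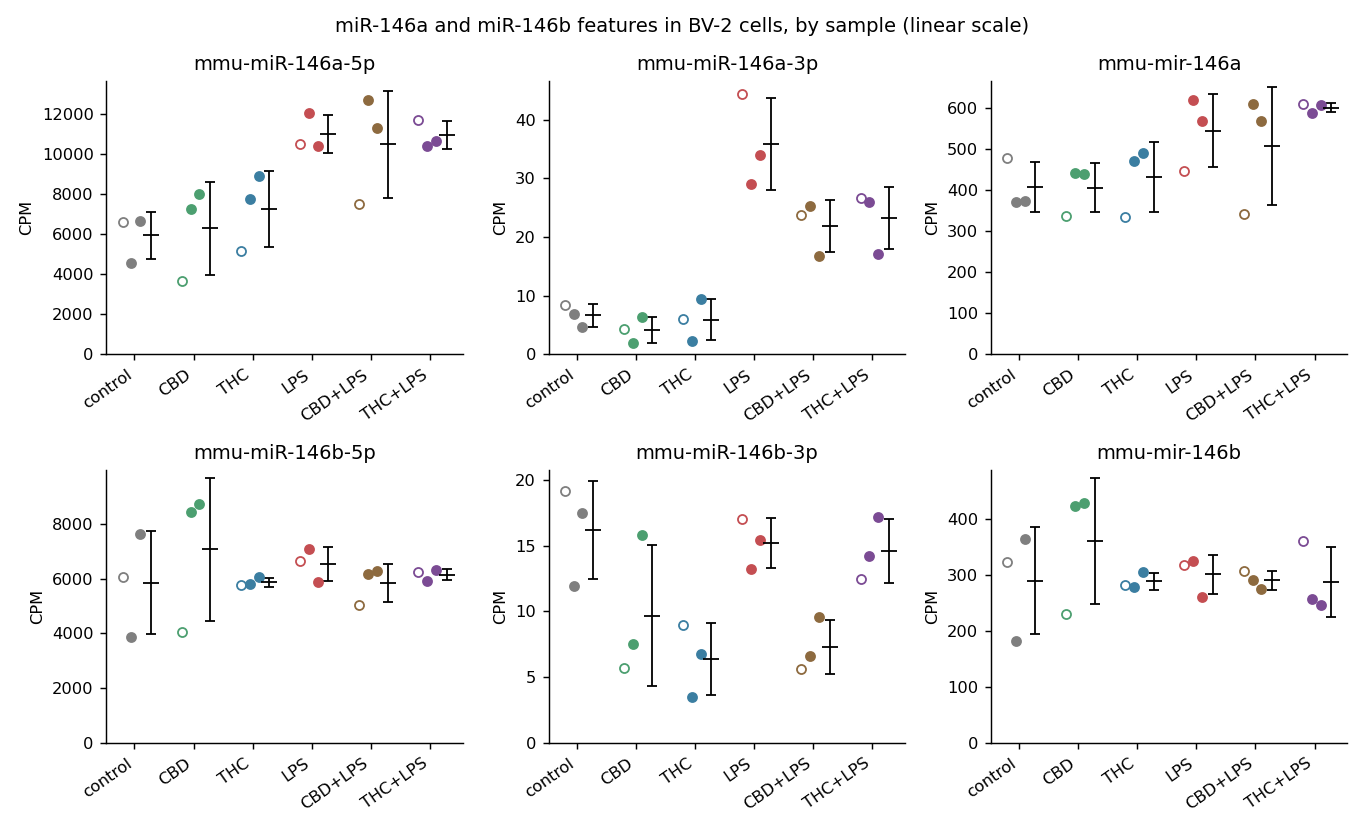
Level of each member in CPM (linear axes from 0) in the 18 BV-2 samples by group, with open points for samples 22 to 27, filled points for samples 28 to 39, and a bar with whiskers for the mean ± SD of 3 samples. miR-146a-3p lies between 16.8 and 44.5 CPM in all samples with LPS and at or below 9.46 CPM in all samples without it, whereas miR-146b-5p has overlapping ranges in control (3863 to 7609 CPM) and LPS (5855 to 7062 CPM).

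The mir-146a hairpin did not pass either criterion over all 18 samples, but it passed both within samples 28 to 39. It was at 479, 371 and 373 CPM in control, at 447, 620 and 569 CPM in LPS and at 609, 587 and 606 CPM in THC+LPS. The LPS range overlapped control, and the THC+LPS range lay above it, though the share of all features that separate in this way is not given here. Pooled over the cannabinoid states the log2 difference with LPS was 0.40 (SE 0.13, adjusted p = 0.252), and an exact permutation test of it, with labels exchanged within each cannabinoid state, gave an unadjusted two-sided p of 0.00875. The same permutation test was run on the other members. It gave an unadjusted p of 0.00025 for miR-146a-3p and 0.0005 for miR-146a-5p. For mir-146b, miR-146b-3p and miR-146b-5p this p was 0.715, 0.318 and 0.88. Without CBD+LPS sample 26, which had 343 CPM against 610 and 567 CPM in the other CBD+LPS samples, the pooled difference of mir-146a was 0.48 and was called (unadjusted p by limma 0.000459). Within samples 28 to 39 it was 0.47 and called as well (adjusted p = 0.0073, with 2.35% of all features called). There the differences from control were 0.67 in LPS, 0.66 in CBD+LPS and 0.68 in THC+LPS, and each was called (adjusted p by limma between 0.00501 and 0.00652, with 2.71%, 3.89% and 2.05% of all features called). The pooled difference was also called with DESeq2, with a covariate for samples 22 to 27 or for library composition, and with a block over the runs of numbers 22 to 27, 28 to 33 and 34 to 39. With samples 28 to 39 alone, these are 5 of 15 other settings, over which it ranged from 0.16 to 0.47. The rest, edgeR and the other scalings among them, did not call it. Of 18 fits with a sample left out, 1 called it. LPS against control was called for mir-146a under 1 of 16 other settings. How reads that cover a mature strand were shared between the mature and the hairpin row is not given in the sources used here.

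Both strands of miR-146a come from the same hairpin, and their ratio does not depend on the scaling between samples apart from the pseudocount. In control samples there were 1.29, 1.497 and 0.702 reads of miR-146a-3p per 1000 reads of miR-146a-5p, and in LPS samples 4.24, 2.41 and 3.26. CBD samples had 1.18, 0.260 and 0.790, and THC samples 1.16, 0.305 and 1.07. The ratios without LPS rest on few miR-146a-3p reads, 4 in each control sample, 3, 1 and 4 with CBD and 6, 2 and 7 with THC. The pseudocount weighs most on these low values. With CBD+LPS the values were 3.15, 1.99 and 1.49, and with THC+LPS 2.28, 2.50 and 1.61. LPS samples thus lay above control samples, and by these values only CBD+LPS sample 38 fell below a sample without LPS, control sample 28. On the log2 ratio with the pseudocount, which was tested, THC+LPS sample 39 (-9.193) also fell below control sample 28 (-9.187). The log2 ratio was higher by 1.37, or 2.59-fold, in the 9 samples with LPS than in the 9 without. An exact permutation test within cannabinoid states gave a two-sided p of 0.00025, the smallest that its 8000 relabelings allow, and the same value after Benjamini-Hochberg adjustment over the 2 ratios tested. The difference was 1.47 within samples 28 to 39 and between 1.22 and 1.49 with any single sample left out.

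The second ratio set miR-146a-5p against miR-146b-5p, which share the seed. In control samples it was 1.09, 1.18 and 0.872, so that the paralogues were at similar levels. In LPS samples it was 1.58, 1.71 and 1.78, in CBD+LPS samples 1.49, 2.06 and 1.79, and in THC+LPS samples 1.88, 1.76 and 1.69. All 9 samples with LPS lay above all 9 without LPS, the highest of which was a THC sample at 1.47. CBD samples stood at 0.901, 0.857 and 0.920, and THC samples ranged from 0.894 to 1.47. With LPS the log2 ratio was higher by 0.75 (1.68-fold), again with the smallest possible exact permutation p of 0.00025, two-sided and also after adjustment. Within samples 28 to 39 the difference was 0.73, and with any single sample left out it was 0.69 to 0.80. Summed over both 5p strands, the level of the shared seed was 11779 ± 3005 CPM in control and 17506 ± 1467 CPM in LPS (SD, n = 3), with ranges of 8432 to 14244 and 16266 to 19126 CPM that did not overlap. Without LPS it was 13354 ± 4931 CPM under CBD (7692 to 16708) and 13118 ± 2043 CPM under THC (10903 to 14928). With LPS it was 16320 ± 3320 CPM under CBD (12561 to 18850) and 17070 ± 809 CPM under THC (16331 to 17934). The CBD range reached into that of LPS, and the CBD+LPS range into that of control. The sum thus did not separate all samples with LPS from all samples without it.

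**Figure D2:**
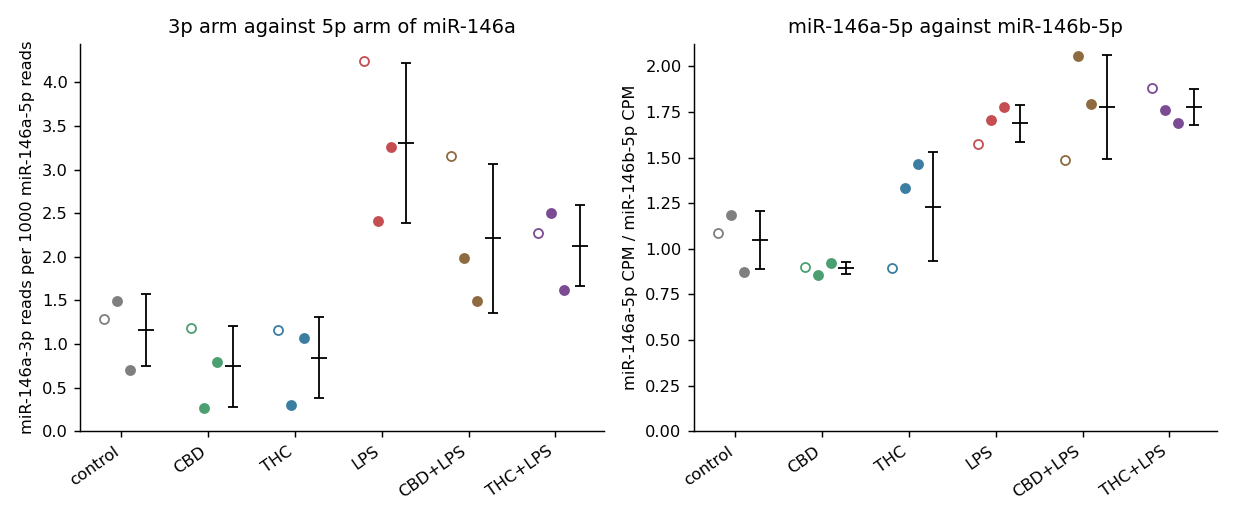
Left, miR-146a-3p reads per 1000 miR-146a-5p reads, and right, the level of miR-146a-5p over that of miR-146b-5p, per sample and group on linear axes from 0, with open points for samples 22 to 27 and a bar with whiskers for the mean ± SD of 3 samples. The right panel shows all samples with LPS between 1.49 and 2.06 and all samples without LPS at or below 1.47.

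miR-146b-5p, the paralogue with the same seed, was not called in any comparison. It was at 6072, 3863 and 7609 CPM in control, 6644, 7062 and 5855 CPM in LPS, 5051, 6170 and 6281 CPM in CBD+LPS and 6221, 5918 and 6297 CPM in THC+LPS. All 3 ranges with LPS fell within the control range. Pooled over the cannabinoid states the log2 difference with LPS was 0.02 (95% confidence interval -0.28 to 0.33), and between -0.21 and 0.11 under the other settings tried. The mir-146b hairpin was at 290 ± 95.2 CPM in control and 302 ± 34.9 CPM in LPS (SD, n = 3), with a pooled log2 difference of -0.06 (95% confidence interval -0.38 to 0.26). Its profile over the 18 samples was close to that of miR-146b-5p, with a root mean square difference of 0.15 between the centered log2(CPM + 1) values, as against 0.27 between mir-146a and miR-146a-5p. miR-146b-3p, the passenger strand, stood at 15.2 ± 1.89 CPM in LPS and 16.2 ± 3.75 CPM in control (SD, n = 3). In each of these 3 members the interval between LPS and control included 0, with upper bounds of 0.75 for miR-146b-5p, 0.68 for mir-146b and 0.82 for miR-146b-3p on the log2 scale.

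Cannabinoids alone called no member. CBD against control called 0 of 6 members by limma, with 1.61% of all features called, and 0 members had an unadjusted p under 0.05, beside 9.17% of all features. THC against control also called 0 of 6, with 0.44% of all features called, and 1 member had an unadjusted p under 0.05, beside 3.37% of all features. edgeR's quasi-likelihood test and DESeq2 called no member in either comparison. miR-146a-5p was at 3647, 7229 and 8006 CPM in CBD samples and at 5147, 7732 and 8875 CPM in THC samples, and both ranges overlapped control. Its log2 difference from control was 0.03 for CBD (95% confidence interval -0.56 to 0.61) and 0.27 for THC (-0.31 to 0.86). In each of these groups the lowest sample was the one numbered under 28. Within samples 28 to 39 the difference of THC from control was 0.59 and met the criterion (adjusted p = 0.25, with 0.954% of all features called), and that of CBD was 0.47, which did not.

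miR-146a-3p had 3, 1 and 4 reads in the CBD samples and 6, 2 and 7 reads in the THC samples. At this depth a change from the 4 reads of each control sample was not detectable, and the log2 differences were -0.64 (95% confidence interval -1.61 to 0.33) for CBD and -0.26 (-1.23 to 0.71) for THC. The hairpins and miR-146b-5p overlapped control under both cannabinoids, with log2 differences between -0.01 and 0.32. Among samples 28 to 39 the differences under CBD were 0.66 for miR-146b-5p (adjusted p = 0.0452) and 0.72 for mir-146b (adjusted p = 0.0504), with 11.2% of all features called there, and that of mir-146a under THC was 0.37 (adjusted p = 0.441). None of these met the criterion.

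The THC samples of miR-146b-3p lay below its control samples without overlap. The share of all features that separate in this way is not given here, so the separation carries no weight by itself. miR-146b-3p was at 19.1, 12.0 and 17.5 CPM in control, at 8.95, 3.54 and 6.75 CPM in THC and at 5.74, 7.51 and 15.8 CPM in CBD. For THC the log2 difference was -1.26 (95% confidence interval -2.15 to -0.37). Its adjusted p by limma was 0.959, and the unadjusted p of 0.0082 did not meet the criterion. Without a mean-variance trend the unadjusted p by limma was 0.00417, which meets it. The levels rest on 31 reads in the control samples together and 17 in the THC samples.

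When LPS was present, the cannabinoids called no member against LPS alone. This was so for CBD+LPS against LPS and for THC+LPS against LPS, each with 0.22% of all features called by limma. An unadjusted p under 0.05 was found for 1 member with CBD and none with THC, beside 44 and 32 of the 1363 features, and edgeR and DESeq2 called none. For miR-146a-5p the log2 difference from LPS was -0.10 with CBD (95% confidence interval -0.68 to 0.49) and -0.01 with THC (-0.59 to 0.58). For miR-146a-3p both groups lay below the LPS samples without overlap, at 21.9 ± 4.49 CPM with CBD and 23.3 ± 5.29 CPM with THC against 35.9 ± 7.84 CPM (SD, n = 3). The share of all features that separate in this way is not given here, so the separation carries no weight by itself. The log2 differences were -0.69 (95% confidence interval -1.65 to 0.28) and -0.61 (-1.57 to 0.36), neither of which met the criterion. With CBD pooled over LPS and its absence, miR-146a-3p differed by -0.66 (95% confidence interval -1.31 to -0.01, adjusted p = 0.692), and with THC by -0.43 (-1.09 to 0.22). miR-146b-3p was at 5.64, 6.64 and 9.60 CPM in CBD+LPS, below its 17.0, 13.2 and 15.4 CPM in LPS, with a log2 difference of -0.99 (95% confidence interval -1.88 to -0.10). That separation has the same limit and rests on 18 reads in CBD+LPS and 38 in LPS. The unadjusted p by limma was 0.0312 and the adjusted p was 1.

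Set against control, miR-146a-3p was called higher in both CBD+LPS and THC+LPS. CBD+LPS against control called 1 member, miR-146a-3p, at 3.28-fold in mean CPM and a log2 difference of 1.59 (SE 0.46, adjusted p = 0.307), with 1.39% of all features called. THC+LPS against control called 2, miR-146a-3p at 3.49-fold (log2 difference 1.67, SE 0.46, adjusted p = 0.172) and miR-146a-5p at 1.84-fold (0.90, SE 0.28, adjusted p = 0.257), with 1.83% of all features called. miR-146a-5p in CBD+LPS had a log2 difference of 0.81 from control (95% confidence interval 0.22 to 1.39) and an unadjusted p by limma of 0.0096. It met the criterion without CBD sample 24 (0.81) or CBD+LPS sample 26 (1.03), and within samples 28 to 39 (1.12, adjusted p = 0.00029, with 3.89% of all features called). All these comparisons share the control samples. The calls of miR-146a-3p were lost without control sample 28 or 34 in both, without CBD+LPS sample 26 or 32 in the first, and without THC+LPS sample 27 or 33 in the second, with log2 differences of 1.39 to 1.62 and 1.47 to 1.70. They were also lost within samples 28 to 39, at 1.70 and 1.73. The call of miR-146a-5p in THC+LPS was lost without any single one of the same 12 samples as its call in LPS, at differences of 0.72 to 0.99.

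The interaction of each cannabinoid with LPS, which asks whether the LPS effect differed under the drug, called none of the 6 members and 0% of all features by limma for CBD and 0% for THC. Unadjusted p-values under 0.05 were found for none of the members, and for 65 and 51 of the 1363 features. edgeR and DESeq2 called no member either. For miR-146a-5p the interaction was -0.12 with CBD (95% confidence interval -0.95 to 0.70) and -0.28 with THC (-1.11 to 0.55). For miR-146a-3p it was -0.05 (-1.41 to 1.32) and -0.34 (-1.71 to 1.02), so that changes of the LPS effect by more than 2-fold in either direction remain within the intervals of this strand. No interaction of a member was called within samples 28 to 39 either, with 9.83% of all features called for CBD and 0% for THC. There the interaction with THC was -0.68 for miR-146a-5p (adjusted p by limma 0.443) and 1.502 for miR-146b-3p (0.620), and that with CBD was -0.71 for miR-146b-5p (0.207) and -0.77 for mir-146b (0.229), each with an unadjusted p under 0.05. Pooled over LPS, CBD called no member and 0.293% of all features, and THC called no member and 0% of all features by limma. At an unadjusted p under 0.05 CBD had 2 members and THC had none, beside 93 and 41 of the 1363 features, and edgeR and DESeq2 called no member for either.

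CBD and THC are isomers. THC holds a closed pyran ring where CBD has an open one with a free phenol hydroxyl. They were given at the same 10 μM by the same schedule, which allows 2 matched comparisons, without and with LPS. Neither called a member by limma, edgeR or DESeq2, with 3.3% of all features called for CBD against THC and 0.147% for CBD+LPS against THC+LPS. At an unadjusted p under 0.05 these had 0 and 1 members, beside 16.2% and 2.64% of all features. For miR-146a-5p the log2 difference of CBD from THC was -0.25 (95% confidence interval -0.83 to 0.34, adjusted p = 0.745) without LPS and -0.09 (-0.68 to 0.49, adjusted p = 1) with LPS. For miR-146a-3p it was -0.38 (-1.34 to 0.59, adjusted p = 0.775) and -0.08 (-1.05 to 0.89, adjusted p = 1). For miR-146b-5p it was 0.19 (-0.36 to 0.73) and -0.08 (-0.63 to 0.46). These intervals leave room for differences of over 1.5-fold. The differences of CBD from THC within samples 28 to 39 were 0.53 for miR-146b-5p (adjusted p = 0.104) and 0.54 for mir-146b (adjusted p = 0.14), neither meeting the criterion, with 11.6% of all features called. The member with an unadjusted p under 0.05 was miR-146b-3p, at 5.64, 6.64 and 9.60 CPM in CBD+LPS and 12.4, 14.2 and 17.2 CPM in THC+LPS. Its groups did not overlap, the log2 difference was -0.93 (95% confidence interval -1.82 to -0.04), and the adjusted p by limma was 1. These levels rest on 18 reads in CBD+LPS and 34 in THC+LPS. The share of all features that separate in this way is not given here, so the separation carries no weight by itself. Without LPS the difference between the compounds had the opposite sign, 0.49 (-0.40 to 1.38).

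**Figure D3:**
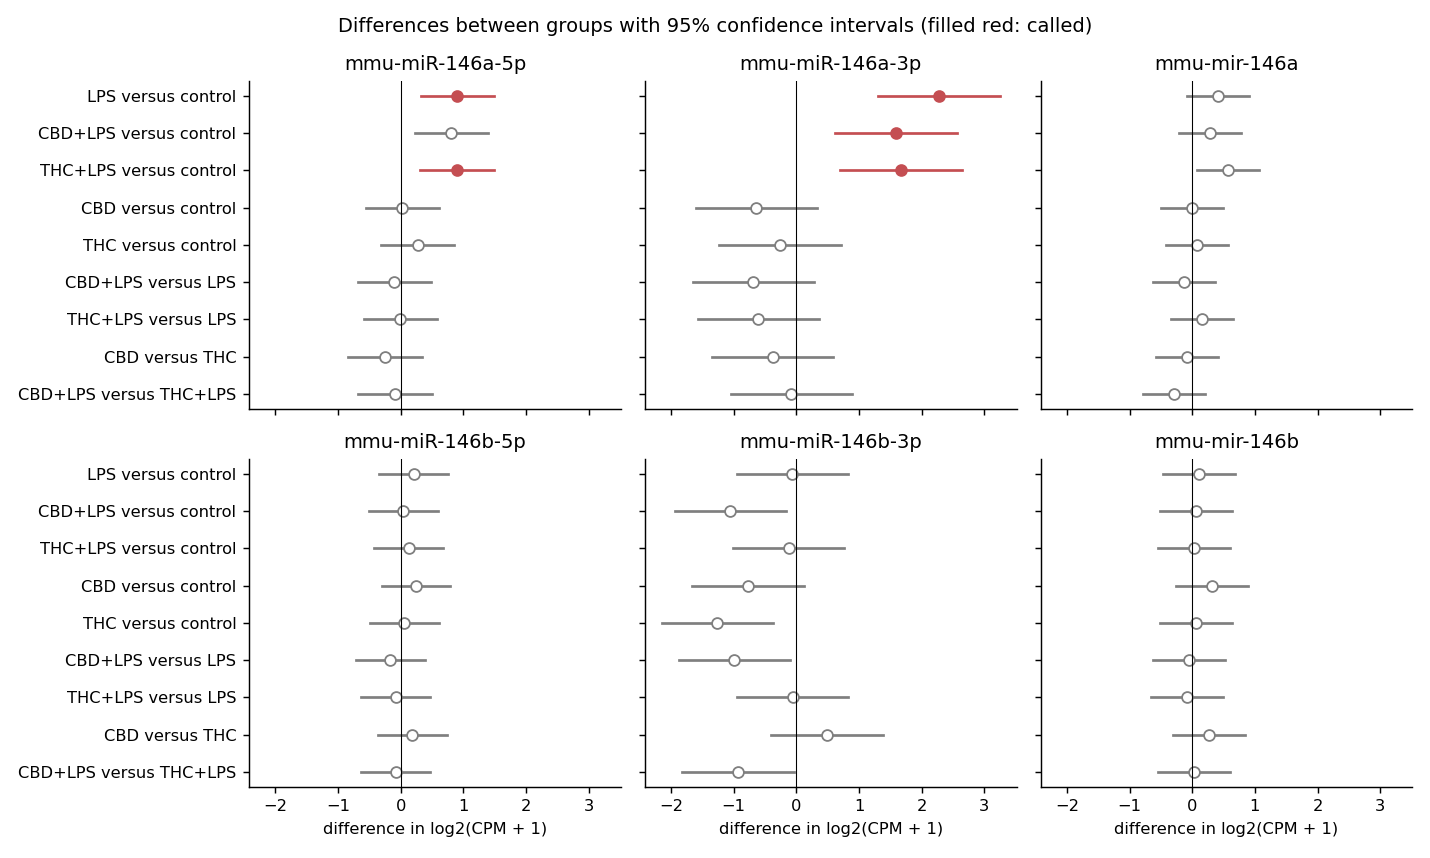
Difference in log2(CPM + 1) between groups for each member and 9 comparisons, as points with 95% confidence intervals from limma, filled red where p was at most 0.005 and the change at least 1.5-fold. Filled points occur for miR-146a-3p in the 3 comparisons of LPS groups with control (2.28, 1.59 and 1.67) and for miR-146a-5p in LPS and THC+LPS (0.91 and 0.90), and in no panel of miR-146b.

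Ordered by mean level, the groups with LPS came first for both strands of miR-146a. For miR-146a-5p the order was LPS, THC+LPS, CBD+LPS, THC, CBD and control, and the ranges of neighbors overlapped at each step. For miR-146a-3p it was LPS, THC+LPS, CBD+LPS, control, THC and CBD. There the ranges separated between LPS and THC+LPS and between CBD+LPS and control, and overlapped at the other steps. The share of all features whose ranges separate in this way is not given here. For miR-146b-5p the order was CBD (7060 CPM), LPS, THC+LPS, THC, control and CBD+LPS (5834 CPM), with overlap throughout.

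By the root mean square difference of centered log2(CPM + 1) over the 18 samples, the profiles nearest to miR-146a-3p among 655 features with at least 100 reads were those of mir-21a (0.63), miR-21a-3p (0.66) and mir-155 (0.68), against a median distance of 1.29. Nearest to miR-146a-5p were miR-145a-3p (0.25), mir-221 (0.26) and miR-21a-5p (0.26), with a median of 0.68. Those of the mir-146a hairpin were mir-140 (0.19), miR-674-5p (0.20) and mir-30d (0.21). On the miR-146b side, mir-146b was nearest to miR-146b-5p itself, and beyond the family to miR-25-3p (0.20), miR-378a-5p (0.21) and miR-17-5p (0.21). miR-146b-5p was nearest, beyond its hairpin, to miR-30a-5p (0.23), miR-25-3p (0.23) and mir-191 (0.24), and miR-146b-3p to mir-5099 (0.48), miR-1946a (0.51) and mir-92a-2 (0.51). All these features share libraries and scaling with the members, so the distances are a description.

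Other miRNAs known to answer TLR4 or NF-κB signaling in myeloid cells were taken as a list of 24 mature strands, of which 22 were tested and both strands of miR-99b were not, having under 10 reads. In LPS against control 5 rose, none fell and 17 were not called, with a median log2 difference of 0.34, beside 0.11 over all features tested. Pooled over the cannabinoid states 7 rose, none fell and 15 were not called, with a median of 0.29 beside 0.03. The strands of miR-155, which promotes inflammatory signaling, rose 9.68-fold for the 5p strand (mean 922 to 8921 CPM, adjusted p = 1.7e-08) and 29.5-fold for the 3p strand (15.8 to 467 CPM, adjusted p = 1.7e-08). miR-21a-5p, which restrains the TLR4 pathway through Pdcd4, rose 2.11-fold and miR-21a-3p rose 3.32-fold. miR-221-5p rose 2.43-fold in LPS against control. miR-222-5p (1.79-fold) and miR-221-3p (1.69-fold) were called in the pooled effect alone. In the same pooled fit miR-146a-3p was at 4.83-fold and miR-146a-5p at 1.66-fold in mean CPM, so that both strands of miR-146a, miR-155, miR-21a and miR-221 were higher with LPS. miR-132 and miR-212, also on the list, were not called, with pooled log2 differences between -0.44 and -0.23.

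**Figure D4:**
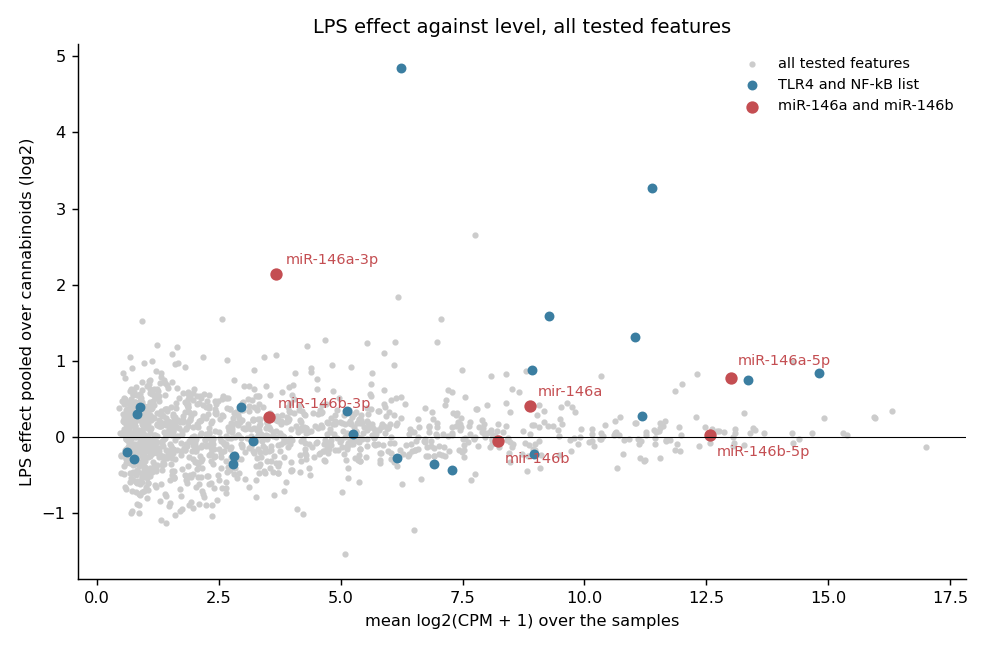
LPS effect pooled over the cannabinoid states (log2, vertical axis) against mean log2(CPM + 1) over the 18 samples (horizontal axis) for the 1363 tested features in gray, the TLR4 and NF-κB list in blue and the miR-146a and miR-146b features in red. miR-146a-3p stands at 2.15 and miR-146a-5p at 0.77, whereas miR-146b-5p (0.02) and mir-146b (-0.06) lie close to 0.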

How the data were processed

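Small RNA from 18 samples of BV-2 cells (6 groups of 3, taken from the labels) had been sequenced in a single pool from TruSeq small RNA libraries as paired reads of 69 bases. According to the study's methods, BWA and edgeR served the authors for alignment to miRBase (mouse entries, reads with up to 10 mappings kept) and normalization. Their versions are not given in the sources used here. The deposited values, recorded as signal, are CPM whose library sizes carry the TMM factor of edgeR, for 855 hairpins and 1279 mature miRNAs. They are whole multiples of the value of 1 read (100% of values, tolerance 0.001 reads), which gave back the reads.

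The tests used limma 3.58.1 (mean-variance trend, R 4.3.3) with log2(CPM + 1) for the 1363 features that had 10 or more reads in all. One model held the 6 groups, and an additive model gave effects pooled over the other treatment. Pairs of groups were called at p of at most 0.005, taken as unadjusted, and at least 1.5-fold, after the study's criterion. The F test, interactions and pooled effects were called at a Benjamini-Hochberg adjusted p of at most 0.1. Ratios were tested by exact permutation within cannabinoid states. Tests were two-sided, and the limma step was tested on simulated data. Intervals are from limma and rest on the spread between samples, whereas floors (3 reads) cover counting error only, as PCR copies of a molecule are counted as separate reads. Alternatives included edgeR 4.0.16, DESeq2 1.42.0, other scalings, filters and pseudocounts, and each sample left out. The 3 features nearest to each member in profile and the TLR4 and NF-κB list were named by rule. Members, lists, subsets and tests were chosen with earlier results of these data known. The labels use each sample number once and do not say whether samples of different groups share a culture or day, so the tests have no block, and a block over runs of numbers was added as an alternative after seeing the data.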

Additional observations from a re-analysis of the deposited data

How the results depend on the processing

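Counts of the 6 members called changed as follows. The F test called 2 with scaling by reference miRNAs (miR-191-5p with miR-103-3p), with DESeq2, with a covariate for samples 22 to 27 or for library composition and with the block described below, and 3 within samples 28 to 39, where it called 18.2% of all features. LPS against control called 1 (miR-146a-3p) with RLE size factors, with edgeR's filterByExpr and without a mean-variance trend, and 3 within samples 28 to 39. THC against control called 1 without the trend and within samples 28 to 39. CBD+LPS against control lost miR-146a-3p and called 0 with library size alone and in a fit of the groups compared, and 2 with either covariate, with the block and within samples 28 to 39. It also lost miR-146a-3p with the reference miRNAs, where miR-146a-5p was called in its place. Within samples 28 to 39 miR-146a-3p was lost too, and the 2 called were miR-146a-5p and mir-146a. THC+LPS against control called 1, which was miR-146a-3p with RLE size factors, filterByExpr or no trend and miR-146a-5p with library size alone, the reference miRNAs or only the groups compared. Within samples 28 to 39 its count stayed at 2, but these were miR-146a-5p and mir-146a. Pooled LPS called 3, the mir-146a hairpin included, with DESeq2, either covariate, the block and samples 28 to 39. CBD against THC called 1 with the reference miRNAs, miR-146a-5p at -0.60. Leaving out single samples gave counts of 1 to 2 for LPS, 0 to 2 for CBD+LPS and 0 to 2 for THC+LPS against control, and 2 to 3 for pooled LPS. Within samples 28 to 39 the share of all features called was 2.71% for LPS against control and 0.954% for THC against control. It was 3.89% for CBD+LPS against control and 2.35% for pooled LPS. Shares for the block follow below, and those under the other settings are not given here. Counts of members under those settings therefore cannot be set beside a share. The cause of the changed counts was not tested.

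Of 1326 values of single members under 16 settings, 1296 kept their side of the threshold, 14 lost a call, 16 gained one and 0 reversed, and 74 uncalled values changed sign. Of 1512 values with a sample left out, 1477 kept their side, 32 lost a call and 3 gained one. miR-146a-3p was called in LPS against control under all 16 settings (2.05 to 2.49) and in pooled LPS under 15 of 15. miR-146a-5p was called in pooled LPS under 15 of 15 (0.53 to 0.85). Other scalings moved the median of all features by over 0.1 (log2): library size alone by -0.13 for LPS and -0.12 for THC+LPS against control and -0.11 for pooled LPS, RLE by 0.135 for the CBD interaction, and the reference miRNAs by amounts between -0.29 (CBD against THC) and 0.20 (CBD interaction), with -0.19 for LPS against control. No replicate number is shared between groups, but 22 to 27, 28 to 33 and 34 to 39 each hold 1 sample of every group, so these runs were fitted as a replicate block, an alternative chosen after seeing the data. The deviations of 9, 3 and 4 of 15 pairs of samples within the runs correlated above 0.1, the lowest correlation being -0.43, so the numbers are not shown to pair the samples. The block called 2 members in the F test, 2 in CBD+LPS against control and 3 in pooled LPS, and changed no other count of members. In these it called 2.86%, 1.69% and 2.42% of all features, beside 1.76%, 1.39% and 1.54% without the block. At these depths the 3p strands, with 230 and 156 reads in all, limit what can be seen of cannabinoid effects on them.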
